A study of Mus musculus with 4 samples.

Results

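The heat shock and chaperone genes described here were 36 human genes, chosen with earlier results of these data known. The set held the transcription factors HSF1 and HSF2 and members of the HSP70, HSP110, J protein and BAG families. HSP90 with its co-chaperones, the mitochondrial chaperonin, the small heat shock proteins and the collagen chaperone SERPINH1 completed it. The 36 genes were found by symbol among the 36601 genes of the feature lists. They took 37 rows, because HSPA14 is listed under both ENSG00000187522 and ENSG00000284024. HSPA1A and HSPA1B have nearly identical coding sequences. How reads that fit both genes were counted was not checked, so each of these values is uncertain.

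Human CD45+ cells were sorted from orthotopic MDA-MB-231 tumors, a human breast carcinoma line, that grew in MISTRG mice, an immunodeficient strain carrying human cytokine genes, after engraftment with human fetal liver CD34+ cells. The 7 untreated mice (named CTRL by their hashtags) were compared with 7 mice given maraviroc at 300 mg/l in drinking water for 10 days from day 21 after tumor injection, and all tumors were taken on day 31. Cells were loaded in 2 droplet reactions with 7 hashtagged mice each, reaction 1 with 4 untreated and 3 maraviroc mice and reaction 2 with 3 untreated and 4 maraviroc mice. Tumors had been digested for 40 min at 37 °C, and all groups shared this step, the host strain, the tumor line and the sort.

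Chaperones fold new proteins and refold damaged ones. Under proteotoxic stress, HSF1 is released from inhibitory chaperones and switches on HSPA1A, HSPA1B, HSPA6, DNAJB1, HSPH1, BAG3, HSPB1 and HSP90AA1, while HSPA8, HSP90AB1 and many co-chaperones are made in every cell. Enzymatic digestion of tissue at body temperature is also known to induce some of the same transcripts.

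Of the barcodes, 19817 passed as single cells, with 10201 from untreated and 9616 from maraviroc mice, and 136 barcodes occurred in both reactions. Per mouse the kept cells held 5996882 to 14782548 UMIs (unique transcript molecules). Median depth was 3020.0 UMIs per cell in reaction 1 and 9691.5 in reaction 2. Marker UMIs placed 5127 cells as macrophages, 2196 as monocytes, 266 as dendritic cells, 3073 as T cells, 1115 as NK cells and 102 as tumor cells. C1QA stood at 1927 counts per 1000000 UMIs (CPM) in macrophages and 85.1 in monocytes, S100A8 at 4732 in monocytes and 113 in macrophages, TRAC at 572 in T cells and 0.0 in NK cells, and KRT19 at 1361 with PTPRC (CD45) at 0.0 in tumor cells. These markers belong to the gates, so their levels describe the classes and do not check the names. PTPRC, the sorted marker, which no gate of an immune class used, stood at 925 in macrophages, 1742 in monocytes, 982 in dendritic cells, 2065 in T cells and 1944 in NK cells. Within macrophages, gates on SLC2A1 (GLUT1), MT1G and CXCL10 held 345, 294 and 668 cells. Of the GLUT1-high cells, 175 passed with exactly 1 SLC2A1 UMI, and 222 macrophages with an SLC2A1 UMI stood under 1 per 10000. Median UMIs per cell inside and outside this gate were 6106 and 4323 in reaction 1, and 8814 and 12925 in reaction 2.

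All levels below are CPM of the summed cells of a class in 1 mouse, and all fold changes come from edgeR quasi-likelihood fits over all genes with Benjamini-Hochberg adjustment. Mice were the replicates. Between classes, p-values set the difference within a mouse against its spread over these mice. For treatment and reaction they set the difference against the spread between mice. In such sums a lower level cannot be told apart from fewer expressing cells in the class.

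Levels were first ordered over the classes, as a description. Among macrophages, monocytes, dendritic cells, T cells and NK cells, 19 of the 37 rows had their highest mean in macrophages, 8 in T cells, 7 in NK cells, 2 in dendritic cells and 1 in monocytes. Of these 19, SERPINH1 was the 1 member whose lowest macrophage sum (22.8) lay above the highest sum of the next class (15.5 in monocytes). The shares of all genes that were highest in macrophages, or apart there, were not counted, so neither count is set against them. The order used CPM without the scaling factors of the fits. It included rows with few UMIs, such as HSPA1L (3.42 in macrophages) and CRYAB (2.14). HSPA1A fell in order from macrophages (439 ± 91.9, SD, n = 14) through monocytes (358 ± 103) and dendritic cells (349 ± 121, n = 12) to T cells (207 ± 45.4) and NK cells (196 ± 62.2), and the ranges of all neighbours in this order overlapped.

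**Figure D1:**
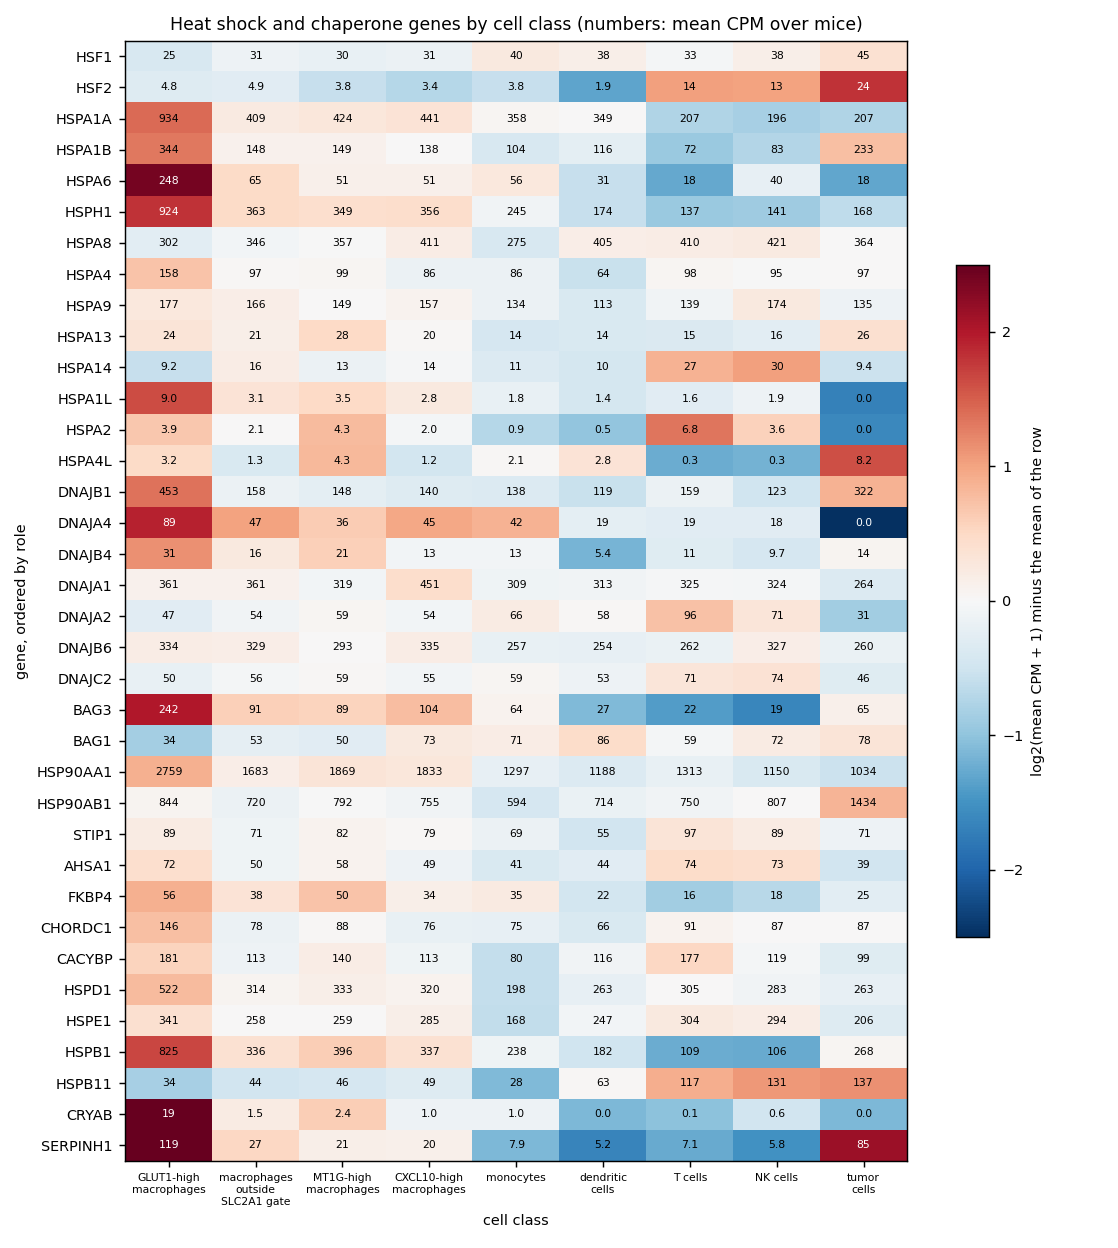
Heat map of the 36 genes (rows, ordered by role; HSPA14 by ENSG00000187522) in 9 cell classes (columns). Printed numbers are mean CPM over mice with at least 10 cells of the class, and colour is log2(mean CPM + 1) minus the row mean. HSPA1A, HSPA6, HSPH1, DNAJB1, BAG3, HSPB1 and SERPINH1 have their highest mean in GLUT1-high macrophages, and HSPB11 has its highest in tumor cells.

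The sum of HSPA1A, HSPA1B, HSPA6, DNAJB1, HSPH1 and BAG3 was followed mouse by mouse. In each mouse it was higher in macrophages than in monocytes, T cells, NK cells and, where these reached 10 cells, dendritic cells. Below macrophages the order of the classes varied between mice. The sum ran from 1049.9 to 1711 in macrophages, from 592 to 1374 in monocytes and from 326 to 1252 in dendritic cells. In T cells it ran from 363 to 824 and in NK cells from 305 to 1113. GLUT1-high macrophages reached 2162 to 5070 in 12 mice, above every sum of the other classes.

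GLUT1-high macrophages, the cells with SLC2A1 transcripts that carry the hypoxia program, held more of most inducible chaperones than the other macrophages of the same mouse. Of 31 members tested in 12 mice, 20 rose and 1 fell, against 12.7% of all 8914 genes that rose and 9.21% that fell. The median log2 fold change was 0.71 over the tested members and -0.04 over all genes. None of the 36 genes was used by the gate. HSF2, HSPA1L, HSPA2, HSPA4L, CRYAB and the second HSPA14 row were too low to be tested.

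The HSP70 and HSP110 group rose in 5 of 9 tested rows. HSPA1A, the main stress-inducible HSP70, had its lowest, median and highest level at 637, 941 and 1322 in GLUT1-high macrophages and at 310.5, 425 and 563 in the others. No GLUT1-high sum reached down to the range of the other macrophages, and the fit gave 2.39-fold (log2 1.26 ± 0.09, SE, adjusted p = 1.5e-11, edgeR). HSPA1B ran from 138 through 351 to 593 against 113, 152 and 189, a 2.47-fold difference (log2 1.31 ± 0.12, adjusted p = 2.6e-09) that was positive in 11 of 12 mice.

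HSPA6, a strictly inducible HSP70 that is nearly silent in unstressed cells, stood at 105, 182 and 539 (lowest, median, highest) in GLUT1-high macrophages and at 46.0, 67.0 and 86.5 in the others. The ranges did not overlap, and the difference was 3.78-fold (log2 1.92 ± 0.18, adjusted p = 1.4e-09, edgeR). HSPH1, the HSP110 that exchanges nucleotide on HSP70, ran from 557 through 915 to 1672 against 288, 356 and 475, again without overlap, and rose 2.69-fold (log2 1.43 ± 0.11, adjusted p = 1.1e-11). HSPA4, a second HSP110, rose by less (log2 0.78 ± 0.15).

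The constitutive HSP70 members did not pass. HSPA8, the heat shock cognate of the cytosol, ran from 206 through 299 to 391 in GLUT1-high and from 245 through 365 to 389 in other macrophages. These ranges overlapped almost wholly, with a log2 fold change of -0.06 ± 0.11 (adjusted p = 0.732). HSPA9, the HSP70 of mitochondria, gave 0.24 ± 0.10 (adjusted p = 0.0757), and HSPA13 and HSPA14 gave 0.24 ± 0.22 and -0.64 ± 0.28, neither passing the test.

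Among the J proteins, which bring substrates to HSP70, 3 of 7 rose. DNAJB1, the main inducible partner of HSPA1A, had 254, 397 and 725 in GLUT1-high against 114, 164 and 199 in other macrophages. The 12 pairs all went up and the ranges were apart, with a 3.00-fold difference (log2 1.58 ± 0.11, adjusted p = 8.0e-12, edgeR). DNAJA4 and DNAJB4 rose by 1.03 ± 0.16 and 0.95 ± 0.24, whereas DNAJA1, DNAJA2, DNAJB6 and DNAJC2 lay between -0.13 and 0.10 and did not pass.

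The BAG proteins, nucleotide exchange factors of HSP70, moved apart. BAG3, which links HSP70 to autophagy, ran from 83.1 through 219 to 483 against 50.5, 72.5 and 177, higher in all 12 mice though with overlapping ranges (2.94-fold, log2 1.55 ± 0.16, adjusted p = 1.4e-08, edgeR). BAG1, which links HSP70 to the proteasome, was the member that fell, from 55.0 to 31.3 by the medians, lower in 12 of 12 mice (log2 -0.61 ± 0.17, adjusted p = 0.0088).

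HSP90 and its co-chaperones rose in 7 of 7 rows. HSP90AA1, the inducible cytosolic HSP90, ran from 1982 through 2609.6 to 4267 against 1447, 1739.9 and 1960.3, so that the ranges just failed to meet (1.73-fold, log2 0.79 ± 0.09, adjusted p = 1.0e-07, edgeR). CHORDC1 (0.94 ± 0.17), CACYBP (0.79 ± 0.12), FKBP4 (0.71 ± 0.15) and AHSA1 (0.66 ± 0.14), an activator of the HSP90 ATPase, followed, and STIP1, which bridges HSP70 and HSP90, and HSP90AB1 rose by 0.46 ± 0.12 and 0.34 ± 0.09. Both subunits of the mitochondrial chaperonin rose, HSPD1 1.75-fold in 12 of 12 mice (log2 0.81 ± 0.12, adjusted p = 6.3e-06) and HSPE1 by 0.51 ± 0.11.

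Of the small heat shock proteins, HSPB1, which holds unfolded proteins in solution, had 477, 811 and 1365 in GLUT1-high and 248, 335 and 422 in other macrophages. It rose 2.61-fold in all 12 mice, without overlap (log2 1.38 ± 0.10, adjusted p = 1.5e-11, edgeR). HSPB11, a subunit of the intraflagellar transport complex, gave -0.26 ± 0.17 and did not pass. CRYAB was not tested: it had 50 UMIs in GLUT1-high macrophages, where its level was 0.0 in the median mouse and 184.5 in the highest.

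SERPINH1, the procollagen chaperone of the endoplasmic reticulum and itself an HSF1 target, showed the largest fold change of the tested members. Its sums were 18.6, 109 and 275 in GLUT1-high and 17.1, 27.4 and 36.2 in other macrophages. The level was higher in 11 of 12 mice and the ranges overlapped because of the 1 mouse that went the other way (4.60-fold, log2 2.20 ± 0.23, adjusted p = 1.3e-08, edgeR). HSF1 itself, at a median of 25.1 against 32.0, did not pass (log2 -0.14 ± 0.19).

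**Figure D2:**
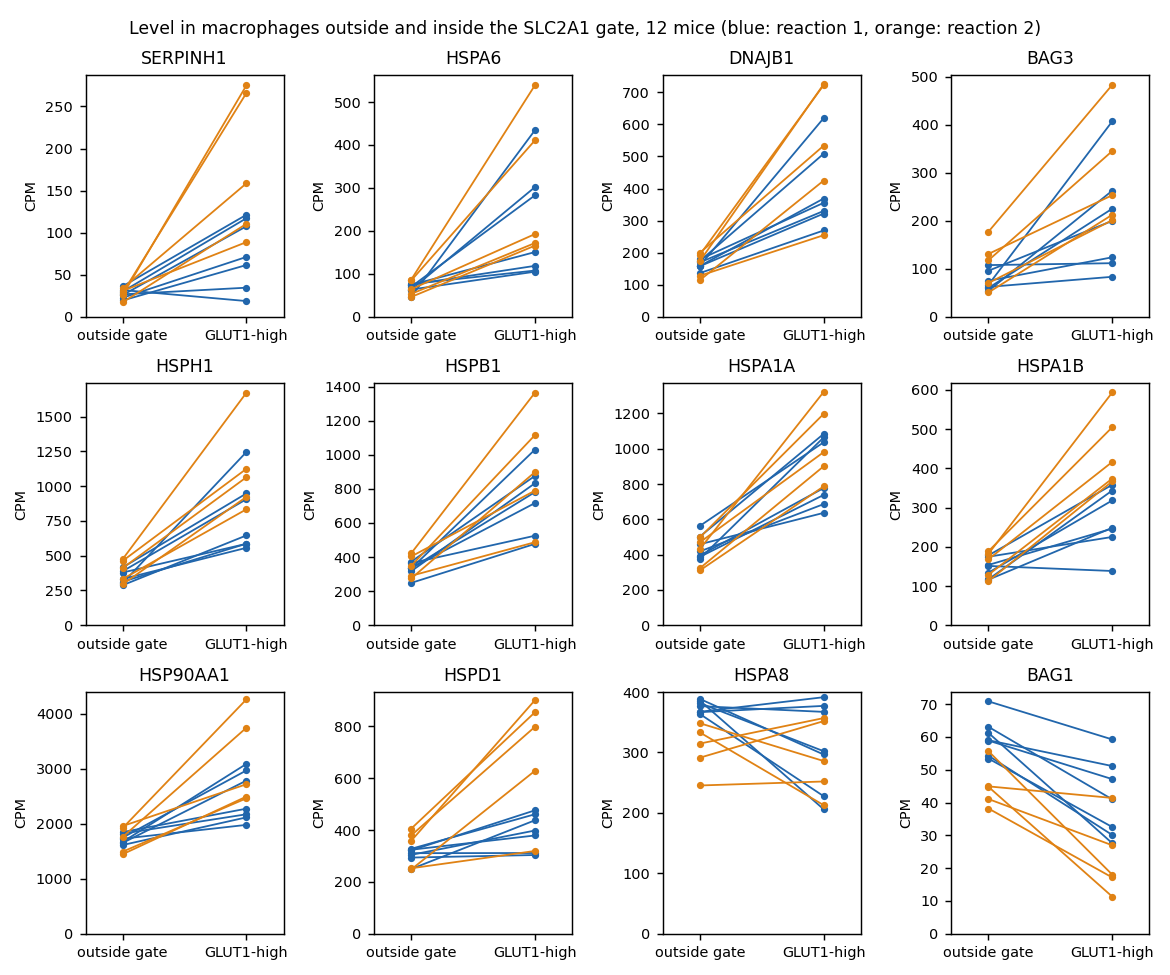
Level in CPM (linear axes from 0) of 12 genes in macrophages outside the SLC2A1 gate and in GLUT1-high macrophages. Each line is 1 of 12 mice, blue in reaction 1 and orange in reaction 2. HSPA1A, HSPA6, DNAJB1, HSPH1, HSPB1 and HSP90AA1 rise in every mouse, HSPA8 goes both ways and BAG1 falls in all 12.

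Neighbouring gene lists show how far the change reached. The hypoxia list (VEGFA, LDHA, PGK1 and others) rose in 11 of 11 tested genes, while the TRiC chaperonin, which folds actin and tubulin, rose in 0 and fell in 3 of 8, and the chaperones of the endoplasmic reticulum rose in 1 and fell in 5 of 12. Of 16 other cytosolic chaperones 4 rose and 1 fell. The immediate early genes, which also respond to tissue handling, rose in 3 and fell in 4 of 12, and the part of the digestion in the chaperone levels was not tested.

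The difference held within each reaction, with 14 members up in reaction 1, where 8.01% of genes rose and 3.71% fell, and 19 up in reaction 2, where 5.84% rose and 2.01% fell. No member fell in either alone (BAG1 gave -0.41 ± 0.20 and -0.96 ± 0.32). SERPINH1 gave 1.59 ± 0.25 in reaction 1 and 2.83 ± 0.24 in reaction 2. Tumor markers summed to 88.4 CPM in GLUT1-high and 41.3 in other macrophages of reaction 1, and to 29.1 against 16.4 in reaction 2. In macrophages without a single UMI of the tumor list 20 members rose and 1 fell, against 10.7% and 7.51% of genes. For thinning, macrophages with at least 3000 UMIs were drawn down to 3000 and gated again by at least 1 remaining SLC2A1 UMI. In this smaller set 13 of 19 tested members rose and 0 fell, against 13.6% and 9.96% of all genes. HSPA6 gave 2.16 ± 0.18, while BAG1 and SERPINH1 were no longer abundant enough to be tested. With UMI totals in place of TMM factors, which moved the median of all genes by -0.14, 18 rose and 2 fell where 9.05% and 19.2% of genes did.

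Neither other macrophage state had as many members called. In the MT1G-high cells, which carry metallothioneins, 0 of 31 members rose or fell in 13 mice, where 2.61% and 2.32% of genes did. At an unadjusted p under 0.05 there were 5 members (HSPA6, DNAJA4 and SERPINH1 lower, CACYBP and HSP90AB1 higher; all genes 19.2%), and DESeq2 called HSPA6 lower and CACYBP higher, 2 members against 12.2% of its genes. HSPA6 ran from 6.42 through 48.3 to 93.3 in MT1G-high and from 49.7 through 77.7 to 108 in other macrophages, lower in 10 of 13 mice (log2 -0.61 ± 0.20, adjusted p = 0.0714, edgeR).

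In CXCL10-high macrophages, the interferon-responding state, 3 members rose and 3 fell in 14 mice, against 11.7% and 9.46% of genes. The J protein DNAJA1 rose from a median of 327 to 461 (log2 0.42 ± 0.07, adjusted p = 5.9e-05, edgeR). HSPA8 rose from 345 to 411 (0.36 ± 0.06, adjusted p = 5.7e-05, edgeR) and BAG1 from 48.4 to 68.4 (0.57 ± 0.11). DNAJA1 and HSPA8 were higher in 14 of 14 mice, but their ranges overlapped.

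SERPINH1 (-0.66 ± 0.17), HSPA6 (-0.58 ± 0.15) and DNAJB1 (-0.31 ± 0.09) fell in the CXCL10-high cells. BAG1, HSPA6, SERPINH1 and DNAJB1 were called with opposite signs in the GLUT1-high and the CXCL10-high state. The share of all genes with such opposite calls was not counted. In the CXCL10-high state the members were called about as often as all genes (11.7% and 9.46%). Each state was measured against all other macrophages, which held most cells of the other state (20 cells passed both gates), and the difference between the states was not tested. HSPA1A, at 274, 450 and 652 against 241, 426 and 612, gave 0.05 ± 0.08. Hypoxia genes fell in 8 of 11 here, and the TRiC chaperonin rose in 4 of 8.

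**Figure D3:**
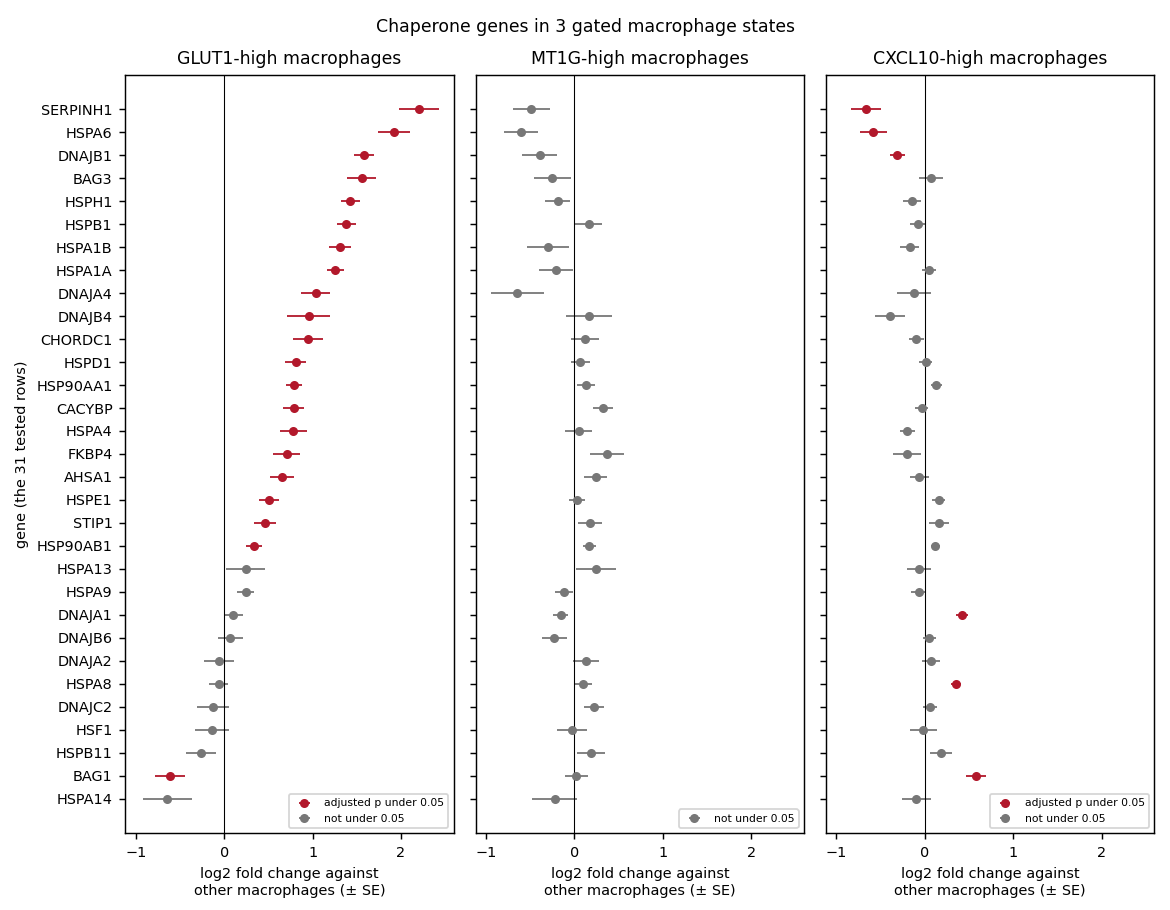
Log2 fold change ± SE (horizontal axis) of the 31 tested rows in GLUT1-high, MT1G-high and CXCL10-high macrophages, each against the other macrophages of the same mice. Red points have an adjusted p under 0.05. The GLUT1-high panel holds 20 red points to the right of 0 and 1 to the left, the MT1G-high panel none, and the CXCL10-high panel 3 on each side.

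HSPA6 was then followed in single cells. In cells thinned to 3000 UMIs, 549 of 4039 macrophages held an HSPA6 UMI. The share was 13.4% (95% exact binomial interval 11.9 to 14.95, counting error only) in reaction 1 and 13.8% (12.4 to 15.4) in reaction 2. Without thinning it was 20.8% at a median of 4424 UMIs per macrophage and 36.03% at 12681.

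Other classes held fewer such cells: 9.43% and 8.97% of thinned monocytes (reactions 1 and 2), 7.51% and 6.76% of NK cells and 5.09% and 3.10% of T cells. Unthinned shares were 16.2% and 21.3% in monocytes, 8.46% and 10.6% in NK cells and 6.27% and 4.63% in T cells, whose median depths were 6452 and 7143.5. No class here is known to lack HSPA6, T cells held the lowest shares of these classes, and the part of free RNA in them was not tested. GLUT1-high macrophages stood at 23.0% (16.8 to 30.2) and 26.1% (18.9 to 34.4).

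Macrophages with an HSPA6 UMI were compared with those without in the 13 mice that had at least 10 of them, as a description with no test. HSPA1A had a median of 927 in the cells with and 374 in the cells without, HSPH1 892 against 320, DNAJB1 428 against 142, BAG3 247 against 60.7 and HSPB1 755 against 328, each higher in 13 of 13 mice. HSP90AA1 (2860.2 against 1601), DNAJA1 (587 against 321), HSPD1 (520.0 against 284) and HSPE1 (377 against 239) were also higher in 13 of 13. The constitutive HSPA8 (376 against 337, higher in 9), HSPA9 (152 against 166, higher in 3) and HSF1 (21.7 against 28.1, higher in 3) were not. HSP90AB1, also made in every cell, was 961 against 683 and higher in 11, and DNAJB6 was 403 against 296 and higher in 13.

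Genes outside the family differed among themselves. LDHA (465 against 460) and PGK1 (456 against 419), both glycolytic enzymes, were higher in 9 of 13 mice, but SLC2A1 (56.6 against 17.3) and the hypoxia gene ADM (147 against 48.2) were higher in 11 and 12. Of the immediate early genes, JUN was higher in 13 of 13 (534 against 345), while FOS was higher in 2 (765 against 1000.0) and JUNB in 1. The part of tissue handling in these levels was not tested.

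Monocytes with and without an HSPA6 UMI were set side by side in 10 mice. DNAJB1 stood at 653 with and 103 without an HSPA6 UMI, BAG3 at 417 and 43.7, HSPH1 at 1060.0 and 187, HSPA1A at 1205 and 297, and CACYBP, a co-chaperone that binds the ubiquitin ligase adaptor SKP1, at 226 and 67.3. JUN was 472 against 188 and higher in 10 of 10, FOS 1089 against 1123 and higher in 5. Of the hypoxia genes, ANKRD37 (47.6 against 16.2) was higher in 10, and LDHA (712 against 492) and ADM (86.3 against 46.1) in 8. PGK1 (507 against 472) and VEGFA (212 against 185) were higher in 5, and SLC2A1 (39.7 against 17.2) in 7. HSPA8 was also higher in 10 of 10 (403 against 274), whereas HSPA9 (125 against 133) and HSF1 (20.8 against 38.5) were each higher in 4.

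**Figure D4:**
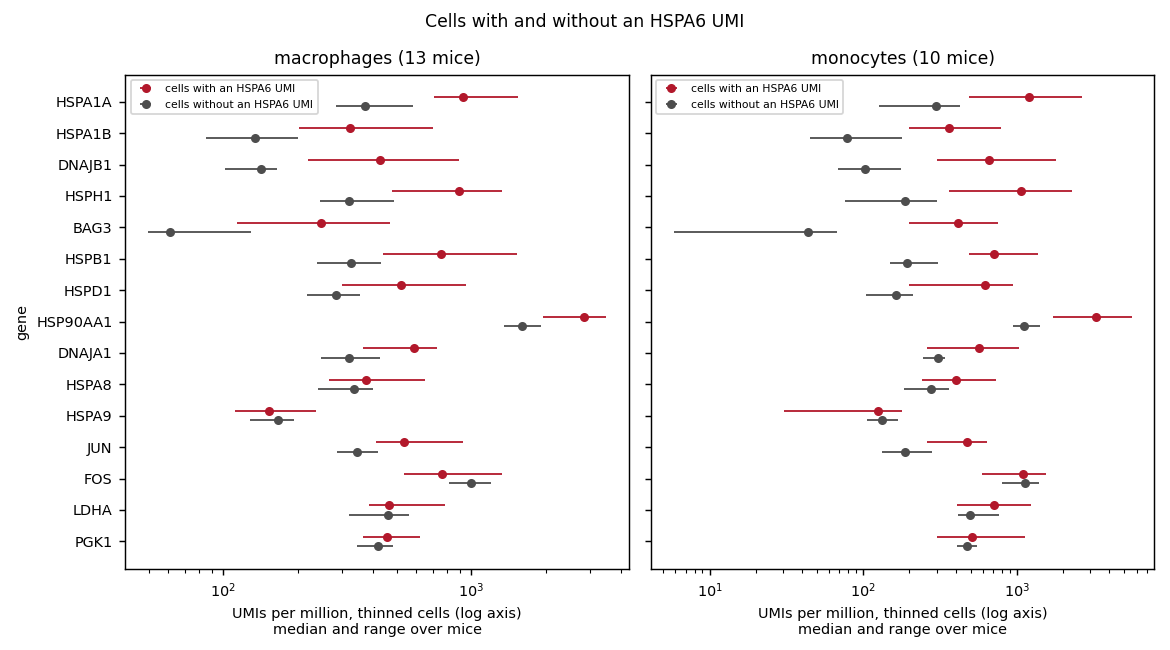
CPM (log axis) of 15 genes in thinned cells with (red) and without (grey) an HSPA6 UMI, as median (point) and range (bar) over 13 mice for macrophages and 10 for monocytes. The ranges of HSPA1A, HSPA1B, DNAJB1, HSPB1 and HSP90AA1 are apart in both classes and those of HSPH1 and BAG3 in monocytes, while HSPA8, HSPA9, FOS, LDHA and PGK1 overlap.

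Monocytes as a class held less of the family than macrophages. Of 33 members tested in 14 mice, 17 fell and 4 rose, where 32.7% and 33.4% of all 10768 genes did. SERPINH1 ran from 2.32 through 7.33 to 15.5 in monocytes against 22.8, 30.8 and 40.4, with no overlap (log2 -1.90 ± 0.15, adjusted p = 1.0e-10, edgeR), and HSPE1, from 99.3 through 164 to 219 against 222, 259 and 318, was the other member without overlap (-0.56 ± 0.06, adjusted p = 3.6e-08). HSPD1 (-0.62 ± 0.08), HSPH1 (-0.61 ± 0.06), BAG3 (-0.55 ± 0.12), HSPB1 (-0.53 ± 0.08), HSPA1B (-0.49 ± 0.09), HSP90AA1 (-0.33 ± 0.05), DNAJB1 (-0.24 ± 0.09) and HSPA8 (-0.23 ± 0.05) fell too. HSPA1A (-0.20 ± 0.09, adjusted p = 0.0514) and HSPA6 (-0.35 ± 0.17, adjusted p = 0.0764) did not pass.

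BAG1 (0.61 ± 0.07), HSF1 (0.49 ± 0.08), DNAJA2 (0.43 ± 0.07) and DNAJC2 (0.23 ± 0.06), a J protein bound to the ribosome, were the 4 that rose. HSF1 had a median of 41.3 in monocytes and 31.8 in macrophages. UMI totals in place of TMM moved the median of all genes by -0.12 and gave 23 members lower and 3 higher, against 41.7% and 25.8% of genes, with DNAJC2 no longer among the risers.

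In dendritic cells 11 of 31 members fell and 4 rose in 12 mice, where 24.4% and 24.1% of genes did. BAG3 ran from 6.92 through 26.9 to 50.6 against 64.1, 103 and 191 in macrophages, and SERPINH1 from 0.0 through 6.01 to 12.4 against 22.8, 30.8 and 40.4. Neither overlapped (-1.63 ± 0.24 and -2.56 ± 0.30, adjusted p = 1.1e-05 and 5.3e-07, edgeR). DNAJA4 (-1.25 ± 0.23), DNAJB4 (-1.23 ± 0.33), HSPA6 (-1.23 ± 0.29), HSPH1 (-1.08 ± 0.15), HSPB1 (-0.85 ± 0.16) and FKBP4 (-0.71 ± 0.21), a steroid receptor co-chaperone, also fell.

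HSPA1A in dendritic cells did not differ by the test, at 161, 313 and 574 against 252, 421 and 529 (-0.10 ± 0.15, adjusted p = 0.607, edgeR). BAG1 (0.92 ± 0.14), HSPB11 (0.72 ± 0.19), HSPA8 (0.43 ± 0.10) and HSF1 (0.43 ± 0.18) rose. With UMI totals, which moved all genes by -0.18, 18 fell and 3 rose, HSF1 not among them, against 33.4% and 17.0% of genes. CRYAB had 0 UMIs among 3776515 in dendritic cells, at least 2.79-fold lower than in macrophages when set at a floor of 3 counts over the group.

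T cells were next compared with macrophages. Of 33 members tested in 14 mice, 20 fell and 8 rose, against 39.9% and 39.7% of all 11795 genes. HSPA6 ran from 0.0 through 17.7 to 37.8 in T cells and from 47.9 through 76.7 to 107 in macrophages (log2 -2.28 ± 0.18, adjusted p = 2.1e-10, edgeR), HSPB1 from 54.1 through 116 to 147 against 270.1, 362 and 465 (-2.02 ± 0.10, adjusted p = 1.7e-14) and HSPH1 from 69.5 through 142 to 196 against 321, 375 and 529 (-1.80 ± 0.10, adjusted p = 4.8e-13). None of these ranges overlapped, nor did those of SERPINH1 (-2.52 ± 0.17), BAG3 (-2.26 ± 0.12), FKBP4 (-1.55 ± 0.09) and HSPA1B (-1.34 ± 0.11).

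HSPA1A was lower in 14 of 14 mice (137, 207 and 277 against 252, 433 and 603; -1.34 ± 0.10), with ranges that overlapped at 252 to 277. DNAJB1, by contrast, was close in both classes, with 93.9, 165 and 205 in T cells against 133, 177 and 217 (-0.38 ± 0.10, adjusted p = 0.0018, edgeR). DNAJA4 fell by 1.64 on the log2 scale. HSF1, the master factor of the response, fell by 0.33 in the TMM fit. Its mean CPM was not lower, at 33.1 ± 13.3 (SD) in T cells and 30.7 ± 3.41 in macrophages.

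Higher in T cells were HSF2 (1.21 ± 0.14), the second heat shock factor, HSPB11 (1.15 ± 0.07), DNAJA2 (0.56 ± 0.08), both HSPA14 rows (0.51 ± 0.09 and 0.59 ± 0.18), CACYBP (0.34 ± 0.07), AHSA1 (0.20 ± 0.08) and STIP1 (0.13 ± 0.06). HSF2 ran from 7.73 through 14.3 to 18.0 against 2.82, 4.83 and 6.69, and HSPB11 from 65.2 through 119.7 to 153 against 36.4, 42.6 and 57.3. Both were higher in 14 of 14 mice without overlap.

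The scaling mattered in this comparison. UMI totals in place of TMM moved all genes by 0.28, and then 12 members rose and 15 fell, where 51.9% and 30.8% of genes did. HSP90AB1, lower with TMM (-0.25 ± 0.05), turned its sign, as did HSPE1, BAG1 and HSPA8, which had not passed with TMM. HSPA8 had a higher CPM in T cells in 14 of 14 mice (316, 399.7 and 526 against 246, 361 and 384) though its TMM estimate was -0.04 ± 0.06.

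T cells and NK cells, the lymphoid classes, were compared directly. In 14 mice 4 of 28 members were higher in T cells and 4 lower, where 14.2% and 14.3% of genes were. CACYBP ran from 116 through 177 to 215 in T cells and from 81.7 through 116 to 169 in NK cells, higher in 13 of 14 mice (log2 0.60 ± 0.09, adjusted p = 9.6e-06, edgeR). DNAJA2 (0.44 ± 0.10), DNAJB1 (0.42 ± 0.13) and HSP90AA1 (0.18 ± 0.05) were higher as well.

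HSPA6 had 0.0, 17.7 and 37.8 in T cells against 7.27, 29.8 and 91.4 in NK cells (-1.06 ± 0.27, adjusted p = 0.0047, edgeR), lower in 11 of 14 mice with overlapping ranges. HSPA9 (-0.35 ± 0.09), DNAJB6 (-0.34 ± 0.08) and BAG1 (-0.32 ± 0.09) were lower too. CACYBP was the 1 call left in reaction 1 alone, where HSPA6 gave -0.63 ± 0.34, against -1.44 ± 0.31 in reaction 2. Macrophage markers summed to 243 CPM in NK cells of reaction 1 and 93.8 in reaction 2, and to 235.5 and 259 in T cells; their part in the HSPA6 difference was not tested.

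Tumor cells that came through the sort reached the minimum of 10 cells in 3 mice, with at most 16 in a mouse. Each sum thus rested on few cells, and the p-values here on 3 mice. Against macrophages 2 of 31 members rose and 4 fell, where 15.1% and 21.2% of genes did. HSPA6 stood at 0.0, 26.2 and 28.9 against 75.3, 78.4 and 79.2 (log2 -2.14 ± 0.56, adjusted p = 0.00079, edgeR), HSPA1A at 101, 210.0 and 309 against 373, 471 and 603 (-1.53 ± 0.42, adjusted p = 0.0014) and HSPH1 at 58.3, 194 and 251 against 349, 393 and 461 (-1.49 ± 0.43). The ranges of all 3 were apart. Shares of thinned cells with a UMI, in reactions 1 and 2, went both ways. For HSPA1A they were 40.0% and 30.0% of tumor cells against 53.7% and 52.2% of macrophages. For HSPH1 they were 25.7% and 47.5% against 43.7% and 44.3%, and for HSPA6 8.57% and 7.5% against 13.4% and 13.8%. The 95% intervals of HSPA6 in tumor cells were wide, at 1.80 to 23.1 and 1.57 to 20.4. For HSPA1B they were 40.0% and 40.0% against 28.7% and 30.1%, and for DNAJB1 48.6% and 60.0% against 29.6% and 29.3%. These shares rest on 35 and 40 tumor cells, and their difference was not tested.

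DNAJA4 had 0 UMIs among 456730 in the tumor cells, at least 5.70-fold lower at a floor of 3 counts over the group. HSPB11 (1.22 ± 0.41) and SERPINH1 (1.37 ± 0.48) were higher, SERPINH1 at 48.2, 78.5 and 128 against 25.3, 26.6 and 30.8. The calls changed with the mouse left out, in fits below the minimum of 3 mice kept in the other class comparisons. Without mouse 1, 4 members were higher and 5 lower (12.9% and 20% of genes). SERPINH1 then no longer passed, while HSF2, HSP90AA1, HSP90AB1 and HSPA4L did. Without mouse 2, 1 was higher and 4 lower (9.88% and 15.4%), HSPB11 being lost, and without mouse 3, 1 was higher and 3 lower (8.24% and 11.2%), SERPINH1 and HSPA1A being lost. UMI totals moved all genes by 0.25, with 3 members higher and 4 lower, where 17.1% and 16.4% of genes were.

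Maraviroc was compared with no treatment within each class to ask whether the treatment changed chaperone levels. No member passed the test in any class. In macrophages 0 of 34 passed (0.0% of 11483 genes), 0 had an unadjusted p under 0.05 (2.92% of genes), and DESeq2 called 0 (0.0%). HSPA1A ran from 385 through 431 to 557 in 7 untreated and from 252 through 435 to 603 in 7 maraviroc mice, overlapping throughout (log2 -0.08 ± 0.15, 95% interval -0.40 to 0.25, adjusted p = 1.0, edgeR).

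The macrophage estimates of all 34 lay between -0.17 (BAG3, 95% interval -0.64 to 0.29) and 0.26 (HSPA1L). HSPA6 gave 0.00 ± 0.15 (-0.33 to 0.33), from 58.1 through 67.2 to 99.6 untreated and from 47.9 through 78.0 to 107 with maraviroc. HSPH1 gave 0.12 ± 0.11 (-0.11 to 0.35) and HSP90AA1 -0.06 ± 0.09 (-0.26 to 0.14).

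In monocytes 0 of 31 passed (0.0% of genes), HSPA13 alone had an unadjusted p under 0.05 (1 member, 4.06% of genes) and DESeq2 called 0 (0.0%). HSPA6 ran from 18.4 through 49.5 to 122 untreated and from 14.4 through 45.2 to 100.2 with maraviroc, with the largest estimate of the class (-0.63 ± 0.32; -1.33 to 0.06). In T cells 0 of 34 passed (0.0%), with 0 at an unadjusted p under 0.05 (5.16% of genes) and 0 by DESeq2 (0.0%), and in NK cells 0 of 25 (0.0%), with 0 unadjusted (2.27%) and 0 by DESeq2 (0.0%). HSPA1A gave 0.08 ± 0.16 (-0.27 to 0.44) in T cells and -0.21 ± 0.22 (-0.69 to 0.28) in NK cells.

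GLUT1-high macrophages were compared in 6 untreated and 6 maraviroc mice, where 0 of 23 passed (0.0%), with 0 unadjusted (3.74% of genes) and 0 by DESeq2 (0.0%). Of the 23 estimates 19 were below 0, where the median of all genes was 0.00, and the signs were not tested. Such a lean was not particular to this class. Estimates below 0 numbered 23 of 34 in T cells and 19 of 25 in NK cells, while in dendritic cells 17 of 23 were above 0. HSPA1A ran from 738 through 1022 to 1322 untreated and from 637 through 843 to 1197 with maraviroc (-0.20 ± 0.20; -0.64 to 0.24), and HSPH1 from 557 through 855 to 1246 and from 586 through 915 to 1672 (0.16 ± 0.25; -0.39 to 0.71).

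Dendritic cells gave the largest estimates. In 6 against 6 mice 0 of 23 passed (0.0%), 4 had an unadjusted p under 0.05 (13.2% of genes), and DESeq2 called 0 members (1.92% of its genes). DNAJB1 ran from 37.1 through 87.1 to 118 untreated and from 62.7 through 143 to 278 with maraviroc (log2 0.90 ± 0.34, adjusted p = 0.281, edgeR). HSPA1A gave 0.62 ± 0.25 (adjusted p = 0.316), HSPA1B 0.75 ± 0.34 and BAG1 -0.54 ± 0.24. In reaction 2 alone DNAJB1 gave 0.26 ± 0.30 and HSPA1A 0.32 ± 0.30. Dendritic cells numbered 4 to 38 per mouse, and 12 of the 14 mice reached the minimum of 10.

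**Figure D5:**
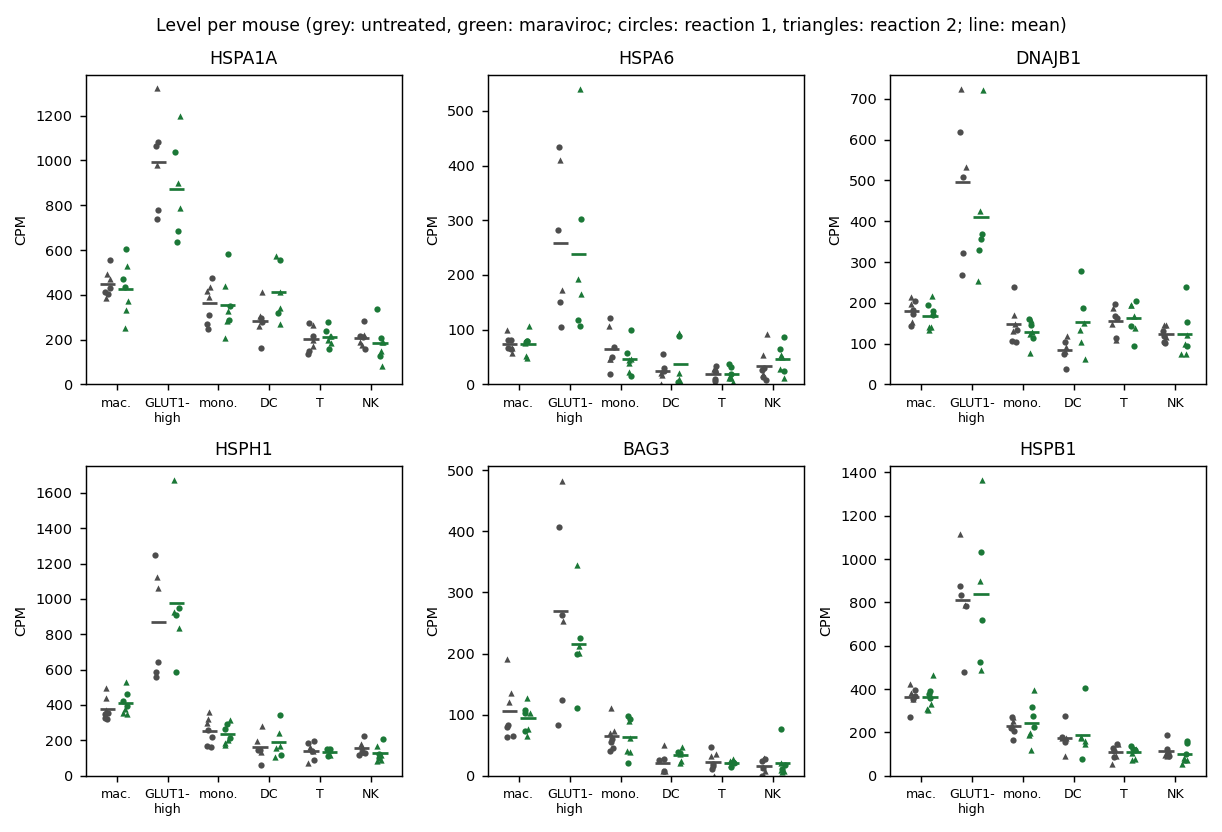
Level in CPM (vertical axes from 0) of 6 inducible genes in 6 cell classes, 1 point per mouse, grey for untreated and green for maraviroc, circles for reaction 1 and triangles for reaction 2, with the mean as a line. Untreated and maraviroc points overlap in every class, and the GLUT1-high mean is the highest of the 6 classes for each gene in both groups.

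The maraviroc difference was also compared between reactions. In macrophages 0 of 34 members passed (0.0% of genes), 4 had an unadjusted p under 0.05 (8.21% of genes) and DESeq2 called 0 (0.158% of its genes). BAG3 was the lowest: its mean was 72.7 ± 9.88 untreated (SD, n = 4) and 94.6 ± 18.2 with maraviroc (n = 3) in reaction 1, and 149 ± 37.2 (n = 3) and 92.9 ± 28.4 (n = 4) in reaction 2 (log2 difference of the effects -1.01 ± 0.30, adjusted p = 0.482, edgeR). The other 3 were DNAJA4 (-0.74 ± 0.33), HSPA14 (-0.69 ± 0.25) and DNAJA1 (-0.41 ± 0.16).

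In monocytes 0 of 31 passed (0.0%), 6 had an unadjusted p under 0.05 (6.96% of genes) and DESeq2 called 0 (1.27%). HSPH1 had 200.2 ± 45.2 untreated and 256 ± 39.3 with maraviroc in reaction 1, and 328 ± 29.8 and 219 ± 66.0 in reaction 2 (-0.87 ± 0.27, adjusted p = 0.450, edgeR). HSPA1B (-0.81 ± 0.29), AHSA1, CHORDC1, HSPE1 and HSPA8 had the same sign.

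Between the reactions themselves, with treatment in the fit, every member called in the reported fits (TMM factors, low-count filter) was lower in reaction 2. The counts of lower members in macrophages and T cells were near the shares of all genes. In macrophages 0 rose and 4 of 34 fell (5.95% and 9.38% of genes): HSPB11 (-0.45 ± 0.07), BAG1 (-0.47 ± 0.09), HSPA8 (-0.27 ± 0.08) and AHSA1 (-0.26 ± 0.08). HSPB11 ran from 45.4 to 57.3 in reaction 1 and from 36.4 to 39.8 in reaction 2, without overlap (adjusted p = 0.00041, edgeR). In T cells 0 rose and 3 of 34 fell (6.95% and 7.73%): HSPA8 (-0.44 ± 0.09), STIP1 (-0.32 ± 0.09) and HSP90AB1 (-0.30 ± 0.09).

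In NK cells 0 rose and 5 of 25 fell (8.34% and 10.1%): HSPB1 (-0.77 ± 0.17), HSPE1 (-0.47 ± 0.11), HSP90AB1 (-0.45 ± 0.11), HSPA8 (-0.39 ± 0.12) and HSP90AA1 (-0.38 ± 0.10). With UMI totals 2 members (DNAJB6 and HSPA9) rose and 4 fell, where 13.6% and 6.64% of genes did. In NK cells the macrophage markers stood at 243 CPM in reaction 1 and 93.8 in reaction 2 and the tumor markers at 84.2 and 4.58, and their part was not tested. In monocytes 0 of 31 passed in either direction (1.22% and 2.36% of genes), with 0 at an unadjusted p under 0.05 (19.2%) and 0 by DESeq2 (14.2%). HSPA1A and HSPA6 in macrophages, at 473 ± 77.2 and 75.7 ± 6.60 in reaction 1 and 405 ± 98.0 and 72.2 ± 23.2 in reaction 2 (SD, n = 7), did not pass.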

How the data were processed

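Human CD45+ cells were profiled in 2 droplet reactions with 7 hashtags each. The deposited matrices hold raw UMI counts, which the authors made with Cell Ranger 9.0.1 and GRCh38 (submitters' processing notes, which also name Seurat 5.1.0), and total 133089612 and 175447534 UMIs in reactions 1 and 2. Treatment came from the names of the hashtags. Hashtags were called with HTODemux (Seurat 5.3.0, R 4.3.3, quantile 0.99). Singlets with above 600 and at most 6000 genes and under 12.5% mitochondrial counts were kept, and HTODemux doublets left out.

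Cells were gated by marker UMIs (macrophages at least 5 UMIs of 3 genes, T cells 3 of TRAC, CD3G and CD5, SLC2A1 at least 1 UMI and 1 per 10000, MT1G and CXCL10 at least 3 and 5 per 10000). Gate thresholds were set after seeing the data, and the members and lists were chosen with earlier results of these data known. In all, 5836 cells had no class and 1502 lay between macrophages and monocytes. Counts were summed per mouse with at least 10 cells, and tested with edgeR 4.0.16 (TMM, filterByExpr, quasi-likelihood test), with the mouse as a term between classes. DESeq2 1.42.0 was an alternative. Intervals of maraviroc differences are log2 fold change ± t quantile × SE. Scripts were tested on simulated data. The rule for naming genes was 11 core members, plus up to 8 further members with the largest change among those passing. It was not kept in every comparison, and members that did not pass were named too. An adjusted p under 0.05 passed the test.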

Additional observations from a re-analysis of the deposited data

How the results depend on the processing

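Over 20 comparisons the count of members called stayed within 1.5 times of the reported one in 179 of the alternatives. It was larger in 11 and smaller in 5. The 179 include alternatives in which a reported count of 0 stayed at 0. Of the members called as reported HSP90AB1 alone turned its sign, in T cells against macrophages with UMI totals. There HSPE1, BAG1 and HSPA8 passed with the sign opposite to their estimate with TMM. Thinning gave 13 calls in GLUT1-high macrophages, with 19 members tested in place of 31. In MT1G-high macrophages DESeq2 gave 2 calls, and no low-count filter, the stricter hashtag quantile and UMI totals gave 1 each, HSPA6. A single reaction gave 3 calls in CXCL10-high macrophages (reaction 2), 4 in dendritic cells and 1 in T against NK cells (reaction 1), with fewer mice. Without the low-count filter there was 1 call for maraviroc in GLUT1-high macrophages (CRYAB, lower), 2 between reactions in monocytes (HSPA1B and HSPH1, higher), 1 in T cells and 8 in NK cells, and 2 each for maraviroc by reaction in macrophages (BAG3, DNAJA4) and monocytes (HSPH1, HSPA4L). T cells between reactions gave 5 calls by DESeq2 and 6 at the stricter hashtag quantile. With each tumor mouse left out in turn the count of members ran from 4 to 9. The cause of these changes was not tested.

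With the reaction as a block, maraviroc gave 0 calls in each class. Not run for lack of mice were 6 alternatives: stricter gates and each reaction alone for tumor cells, stricter gates and reaction 1 for maraviroc in dendritic cells, and reaction 2 for maraviroc in GLUT1-high macrophages. Thinning, UMI totals, tumor-free macrophages, macrophages outside the SLC2A1 gate and mice left out were chosen after seeing the data. Depth limits the members with few UMIs, such as CRYAB and HSPA4L.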
